A study of Mus musculus with 9 samples.

Results

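The 10 genes described here carry or report canonical Wnt signalling, and their transcripts were followed in sorted cells of the mouse limb. They are the secreted R-spondins Rspo1, Rspo2 and Rspo3, the feedback genes Axin2, Nkd1, Nkd2 and Znrf3, and the nuclear factors Lef1, Tcf7 and Tcf7l1. They were taken by symbol from the deposited expression table, where each of the 10 had exactly 1 row among 24102 rows. The mutant cells were Shox2(Cre/-);Rosa(mTmG) and the control cells were Shox2(Cre/+);Rosa(mTmG), both at E12.5. The Shox2 protein is a homeobox factor of the upper limb segment. All cells thus carried 1 Cre allele of Shox2 and the mTmG reporter at Rosa, in which Cre action replaces a red membrane protein with a green one, and GFP-positive cells were sorted. The controls therefore had a single normal Shox2 allele and were not wild type. The table holds 3 mutant and 3 control columns, 1 of each from litters 1, 2 and 3. Litter 1 has 2 labelled mutant samples, and the sources used here do not say which of them the column holds or whether it combines both. The 2 whole limbs of the series were not analysed here. Values are in FPKM, fragments per kilobase of transcript scaled to sequencing output, so levels can be set between genes, but the depth behind them is unknown and its effect on precision cannot be given.

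In the canonical pathway a Wnt ligand binds a Frizzled receptor with Lrp5 or Lrp6, beta-catenin escapes the destruction complex, and TCF/LEF factors switch target genes on with it. Axin2, Nkd1, Nkd2 and Znrf3 are targets that feed back to damp the signal, while R-spondins bind Lgr receptors and remove Znrf3 and Rnf43 from the surface, which leaves more Frizzled for the ligand. In the limb bud, Wnt from the ectoderm keeps the mesenchyme beneath it growing and out of the cartilage fate, and loss of Rspo2 in mice gives limb defects.

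Shox2 itself was at 16.7, 18.3 and 96.9 FPKM in the mutants of litters 1, 2 and 3, against 217, 222 and 210 FPKM in the controls, so the litter 3 mutant kept more of the transcript than the others. Which part of Shox2 the alleles remove is not given in the labels. Limb mesenchyme was marked by Prrx1, a homeobox gene of that tissue, at 121 to 246 FPKM in the mutants and 106 to 184 FPKM in the controls. Litter 1 stood apart: both of its columns lay below each column of litters 2 and 3 in 30.0% of the 12314 rows tested, against 8.3% for litter 2 and 7.97% for litter 3. The litter 2 mutant had the Y-linked Eif2s3y listed at 0 and the X inactivation transcript Xist at 178 FPKM, where its control had 23.9 and 34.6 FPKM, so genotype and sex composition cannot be told apart in that litter. The values without each litter are given where they change a result.

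The R-spondins and Nkd2 were the members that differed most between genotypes. Rspo2, Rspo3 and Nkd2 were higher and Rspo1 was lower in every mutant column than in any control column, while Axin2, a widely used readout of the pathway, overlapped between the groups. Thus 3 of 10 genes were higher without overlap, where 4.22% of the 12314 rows were, and 1 was lower without overlap, where 5.03% were (4 of 10 genes and 9.25% of rows in either direction). Overlap sets columns of different litters against each other, which may mix scalings, though each of the 4 genes also kept its direction within all 3 litters. At an unadjusted p under 0.05 in limma the same counts were found, 3 higher against 2.21% of rows and 1 lower against 1.36% of rows. After Benjamini-Hochberg adjustment over all rows, limma called 0 of the 10 genes and 0.0% of rows in either direction, at a threshold of 0.05. A replicate block for litter again put 3 of the 10 genes on the higher side and 1 on the lower side of an unadjusted limit of 0.05, beside 5.34% and 6.29% of rows, with 0 adjusted calls among the 10 and 0.0% of rows. Without the litter 3 pair, and with no block, 0 of the 10 genes were higher at the unadjusted limit, and 0.943% of rows were. The median log2 difference, mutant minus control on the log2(FPKM + 1) scale, was 0.14 over the 10 genes and -0.04 over all rows tested. The median of the 10 ran from 0.036 without the litter 2 mutant column to 0.28 without the litter 2 control column, with 0.052 without the litter 3 control column and 0.26 without the litter 1 mutant column, and it was 0.35 with column weights.

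**Figure D1:**
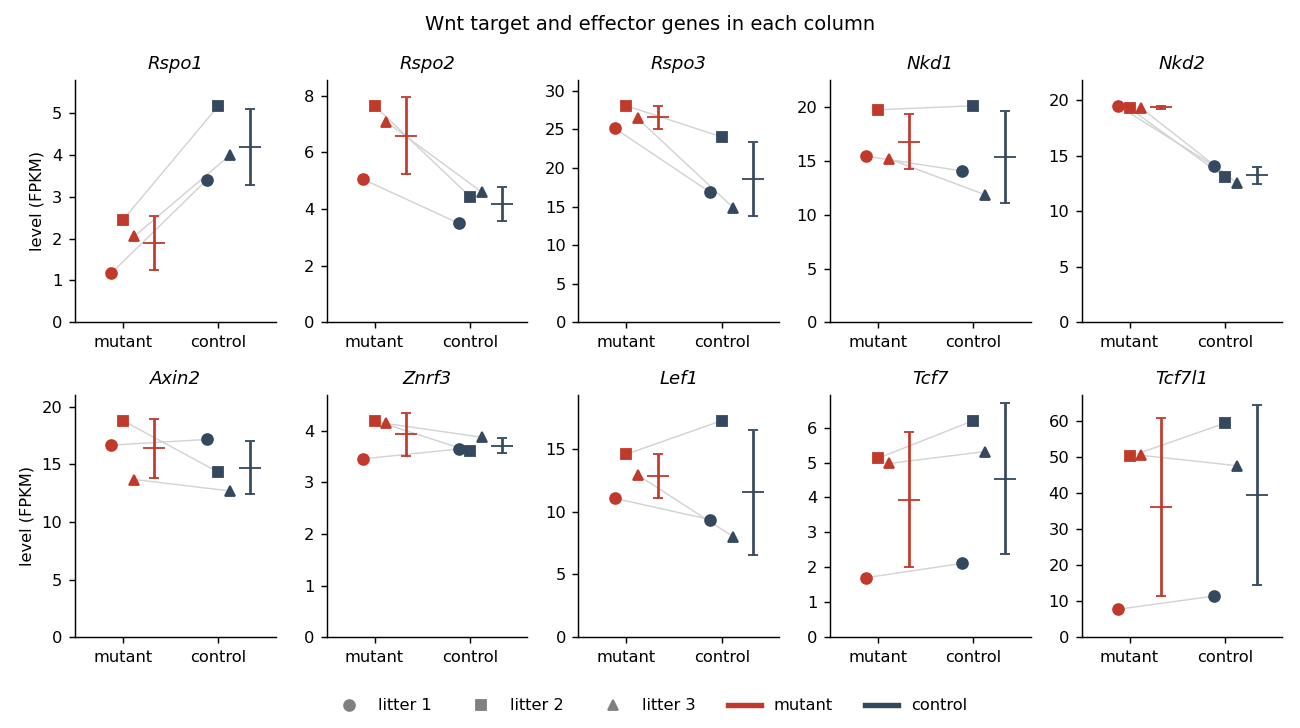
Level in FPKM (vertical axis, from 0) of each gene in the 3 mutant and 3 control columns, with circles, squares and triangles for litters 1, 2 and 3, grey lines joining columns of a litter, and bars for the mean and SD beside the points. The groups separate in Rspo1, Rspo2, Rspo3 and Nkd2, and the litter 1 points lie far below the others in Tcf7 and Tcf7l1.

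Rspo1, a secreted enhancer of Wnt signalling best known from the ovary, was at 1.18, 2.44 and 2.06 FPKM in the mutants of litters 1, 2 and 3, against 3.41, 5.17 and 3.99 FPKM in the controls. The highest mutant stayed below the lowest control. The mutant held 34.6%, 47.2% and 51.5% of its litter's control. The log2 difference was -0.86 (SE 0.23, n = 3 per group, limma adjusted p = 0.904, blocked by litter 0.0974), with a 95% confidence interval from -1.40 to -0.31. Rspo1 was the member with the largest difference and lay on the opposite side from its 2 relatives.

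Rspo2, which is needed for limb outgrowth in mice, was at 5.04, 7.64 and 7.08 FPKM in the mutants, against 3.50, 4.43 and 4.6 FPKM in the controls of the same litters. The litter 1 mutant, the lowest of the 3, was still above each control. The log2 difference was 0.54 (SE 0.19, n = 3 per group, limma adjusted p = 1.00, blocked by litter 0.196), and the 95% confidence interval ran from 0.08 to 1.00.

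Rspo3, an R-spondin also required for blood vessel formation in the mouse, was at 25.1, 28.1 and 26.4 FPKM in the mutants, against 16.8, 24.0 and 14.9 FPKM in the controls. The 3 mutants lay close together, and the control of litter 2 came nearest to them. Within litters the mutant held 149%, 117% and 178% of the control. The log2 difference was 0.52 (SE 0.19, n = 3 per group, limma adjusted p = 1.00, blocked by litter 0.254), with a 95% confidence interval from 0.05 to 0.98.

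For the R-spondin pool, taken as the FPKM of Rspo1, Rspo2 and Rspo3 summed, the shares of Rspo1 and Rspo3 did not overlap between genotypes, while the sum did. The sum was 31.4, 38.1 and 35.5 FPKM in the mutants, against 23.7, 33.6 and 23.5 FPKM in the controls, so the litter 1 mutant was below the litter 2 control and the groups overlapped (exact two-sided permutation p = 0.2), though the sum was higher in the mutant of all 3 litters. Rspo1 made up 3.76%, 6.40% and 5.79% of the sum in the mutants, against 14.4%, 15.4% and 17.0% in the controls. Its share averaged 5.32% ± 1.38 in the mutants and 15.6% ± 1.34 in the controls (SD, n = 3 each), with an exact two-sided permutation p of 0.1, the smallest that 3 columns against 3 can give. Rspo3 was the main part of the sum in all 6 columns, at 76.0% ± 3.61 in the mutants and 68.6% ± 4.52 in the controls (SD, n = 3 each, exact two-sided permutation p = 0.1). The share from Rspo2 was 18.7% ± 2.25 in the mutants and 15.8% ± 3.36 in the controls and overlapped, with the mutant higher in all 3 litters (SD, n = 3 each, exact two-sided permutation p = 0.2). These tests do not use the litter pairing. The difference between family members was itself compared as Rspo2 minus Rspo1 on the log2 scale, at 1.47, 1.33 and 1.40 in the mutants, against 0.03, -0.18 and 0.17 in the controls (exact two-sided permutation p = 0.1). Rspo1 and Rspo2 were thus level in the controls, while Rspo2 was above Rspo1 in each mutant. Rspo3 minus Rspo1 was 3.58, 3.08 and 3.16 in the mutants, against 2.02, 2.02 and 1.67 in the controls (exact two-sided permutation p = 0.1). These pairwise comparisons were chosen after the values were seen. Since Rspo2 and Rspo3 were each higher and Rspo1 lower without overlap, both differences and the share of Rspo1 had to separate. Their permutation p of 0.1 was thus fixed beforehand and adds no evidence to the values of the single genes.

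**Figure D2:**
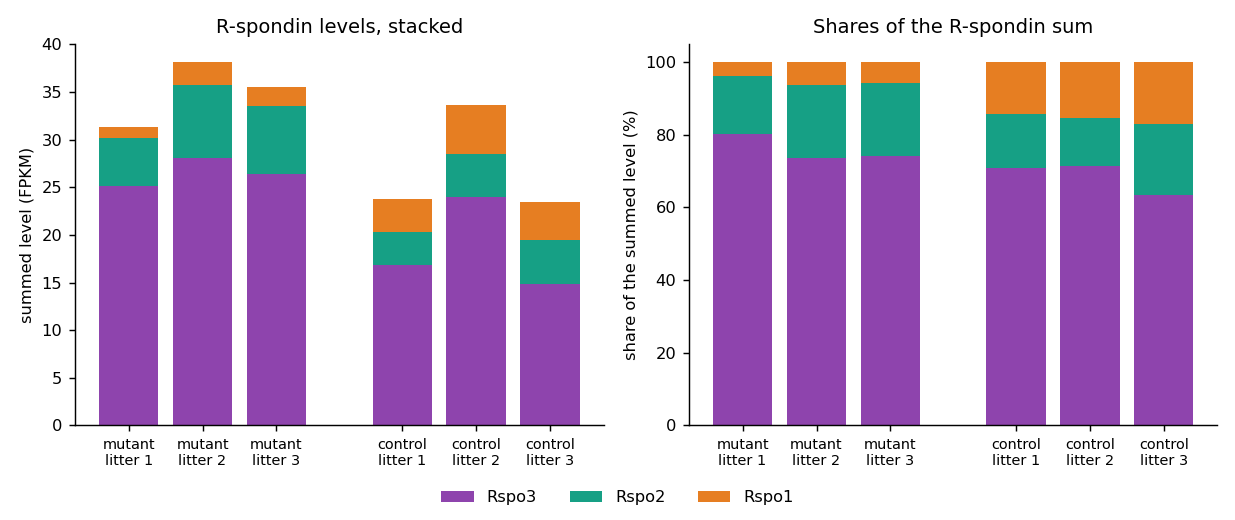
Rspo3, Rspo2 and Rspo1 stacked for each mutant and control column, as summed FPKM on the left and as percent of that sum on the right. Rspo1 takes 3.76% to 6.40% of the sum in the mutants and 14.4% to 17.0% in the controls.

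Nkd2, a Dishevelled-binding inhibitor of the pathway, was at 19.5, 19.2 and 19.3 FPKM in the mutants, against 14.1, 13.0 and 12.6 FPKM in the controls. It was the most even of the members that differed, with a mutant mean of 19.3 ± 0.127 FPKM and a control mean of 13.2 ± 0.784 FPKM (SD, n = 3 each). The mutant held 138%, 148% and 154% of its litter's control, and the log2 difference was 0.52 (SE 0.12, n = 3 per group, limma adjusted p = 0.816, blocked by litter 0.149; 95% confidence interval 0.23 to 0.81). Its relative Nkd1, which also binds Dishevelled, was at 15.4, 19.7 and 15.2 FPKM in the mutants, against 14.1, 20.1 and 11.9 FPKM in the controls, with overlap. The difference between the 2 paralogs, Nkd2 minus Nkd1 on the log2 scale, was 0.20 ± 0.21 in the mutants and -0.17 ± 0.37 in the controls (SD, n = 3 each, exact two-sided permutation p = 0.3). It was higher in the mutant of all 3 litters, and the permutation test does not use that pairing.

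In the fit with litter as a block, members were called only when the litter 2 pair was left out. With litter as a block and the litter 2 pair left out, limma called 5 members at an adjusted p under 0.05, with Nkd2 at 0.51, Rspo2 at 0.48, Rspo3 at 0.67 and Lef1 at 0.42 higher and Rspo1 at -0.86 lower (adjusted p = 0.00552, 0.0196, 8.74e-05, 0.0409 and 3.53e-06 in that order). In that fit of 4 columns 2.51% of rows were called higher and 1.94% lower, and each gene has a single residual degree of freedom of its own. Against the blocked fit of all litters, the SE was larger for Nkd2 (0.131 against 0.105), Rspo1 (0.146 against 0.139) and Rspo2 (0.137 against 0.122). It was smaller for Rspo3 (0.132 against 0.136) and Lef1 (0.132 against 0.170). The lower adjusted p of Nkd2, Rspo1 and Rspo2 thus came without a smaller SE. For Nkd2 the unadjusted limma p went from 0.00182 to 0.000148, while the difference went from 0.52 to 0.51. A lower p at a larger SE and no larger difference takes more degrees of freedom, which limma adds from its variance prior over all rows. These calls are therefore no measure of an effect of litter 2. Over all alternatives the adjusted p ran up to 1.00 for each of the 5, and 0 members were called with the litter 1 or the litter 3 pair left out of the blocked fit. Without litter 3, 0.192% of rows were called higher and 0.0417% lower. Column weights gave 0 members, 0.0975% of rows higher and 0.0244% lower.

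**Figure D3:**
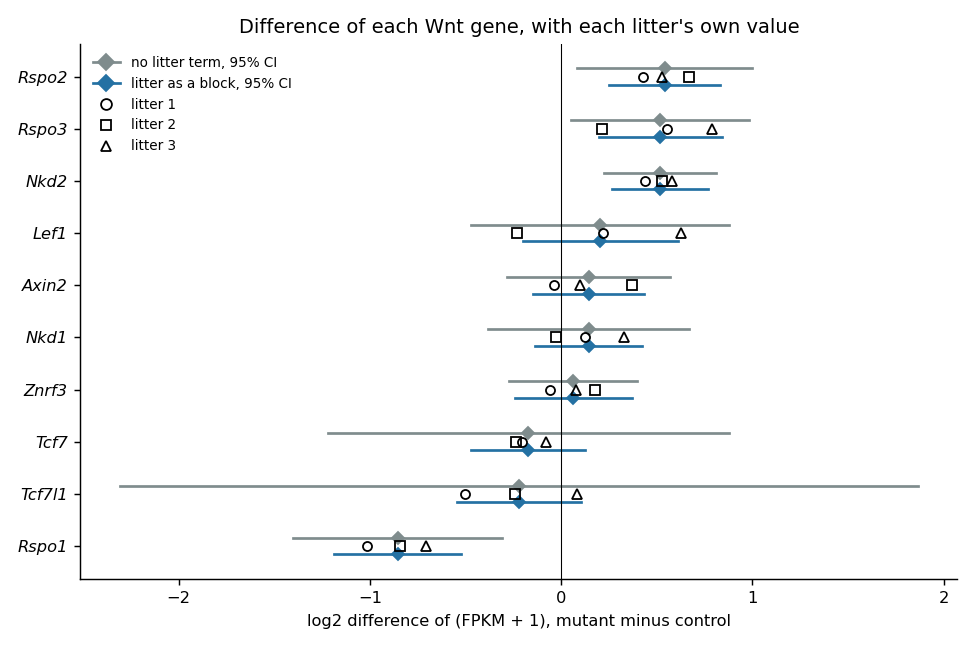
Log2 difference of (FPKM + 1), mutant minus control, for each gene, with diamonds and lines for the estimate and 95% confidence interval without a litter term (grey) and with litter as a block (blue), and open symbols for each litter's own value. Rspo1, Rspo2, Rspo3, Nkd2 and Tcf7 have all 3 litters on one side of 0. The interval of Tcf7l1 narrows from -2.31 to 1.86 without the block to -0.55 to 0.10 with it.

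Of the feedback genes other than the Nkd pair, Axin2 and Znrf3 showed no separation. Axin2, a scaffold of the beta-catenin destruction complex, was at 16.7, 18.8 and 13.7 FPKM in the mutants, against 17.2, 14.3 and 12.7 FPKM in the controls. It was higher in 2 of 3 litters, with a log2 difference of 0.14, or 0.045 to 0.26 with 1 column left out (SE 0.18, n = 3 per group, limma adjusted p = 1.00, blocked by litter 0.629). The 95% confidence interval with litter as a block ran from -0.15 to 0.43, so a fall down to the lower limit or a rise up to the upper one remains within the error. Znrf3, the ubiquitin ligase that clears Frizzled from the surface, was at 3.46, 4.2 and 4.14 FPKM in the mutants, against 3.65, 3.6 and 3.88 FPKM in the controls. Its levels were the most even of the 10 genes, with the highest column at 1.21 times the lowest. The log2 difference was 0.06 with an interval, blocked, from -0.24 to 0.37.

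The nuclear factors Lef1, Tcf7 and Tcf7l1 overlapped between genotypes, and 2 of them differed widely between litters. Tcf7l1, which mostly acts as a repressor in the absence of Wnt, was at 7.76, 50.2 and 50.6 FPKM in the mutants of litters 1, 2 and 3, against 11.4, 59.5 and 47.7 FPKM in the controls. Both litter 1 columns were low: the lowest column of litters 2 and 3 was 4.17 times the higher of them. A gap above 4-fold in that sense was found in 0.382% of the rows tested and in 1 of the 10 genes. Tcf7, a target as well as a mediator of the pathway, was at 1.71, 5.12 and 4.97 FPKM in the mutants, against 2.11, 6.20 and 5.31 FPKM in the controls. It was the other member with both litter 1 columns below the rest, and it was lower in the mutant of all 3 litters by small amounts, at 80.7%, 82.6% and 93.6% of control (log2 difference -0.17, limma adjusted p = 1.00, blocked by litter 0.575). Without the litter 1 mutant column the difference of Tcf7 was 0.21, and without the litter 2 control column it was 0.061. Leaving out 1 column unbalances the litters between genotypes, so these values mix the litter gap with genotype. With a whole litter pair left out, Tcf7 stayed below 0, at -0.16, -0.14 and -0.22 without litters 1, 2 and 3. The same direction in 3 litters was found for 3 genes higher and 2 lower among the 10, where 15.7% of all rows were higher and 22.3% lower in that way (5 of 10 genes and 38.0% of rows in either direction).

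Lef1, a mediator and target of Wnt in the limb, followed no single direction. It was at 11.1, 14.6 and 12.9 FPKM in the mutants, against 9.37, 17.2 and 8.0 FPKM in the controls, with the litter 2 control the highest column of all. The log2 ratio was 0.22 in litter 1, -0.23 in litter 2 and 0.63 in litter 3. The pooled log2 difference was 0.21 (SE 0.28, n = 3 per group, limma adjusted p = 1.00, blocked by litter 0.621). Without the litter 3 pair the difference was -0.0057. Surface ectoderm, where Lef1 is also made, had its highest summed marker level, 51.0 FPKM, in that same litter 2 control. This was not particular to ectoderm, since the summed markers of endothelium (23.5 FPKM) and of muscle (76.0 FPKM) were also highest in that column. The basal keratin Krt14 ran from 1.06 to 1.92 FPKM in the mutants, and was at 5.08 FPKM in the litter 2 control and at 1.13 to 1.36 FPKM in the other controls. The part of these cells in the Lef1 value was not tested. Tcf7l2, the fourth factor of the family and no member of the set described, was at 14.1, 30.4 and 36.2 FPKM in the mutants, against 17.6, 52.0 and 44.1 FPKM in the controls. It was thus lower in the mutant of each litter, with an adjusted p of 1.00 in limma, or 0.320 with litter as a block.

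**Figure D4:**
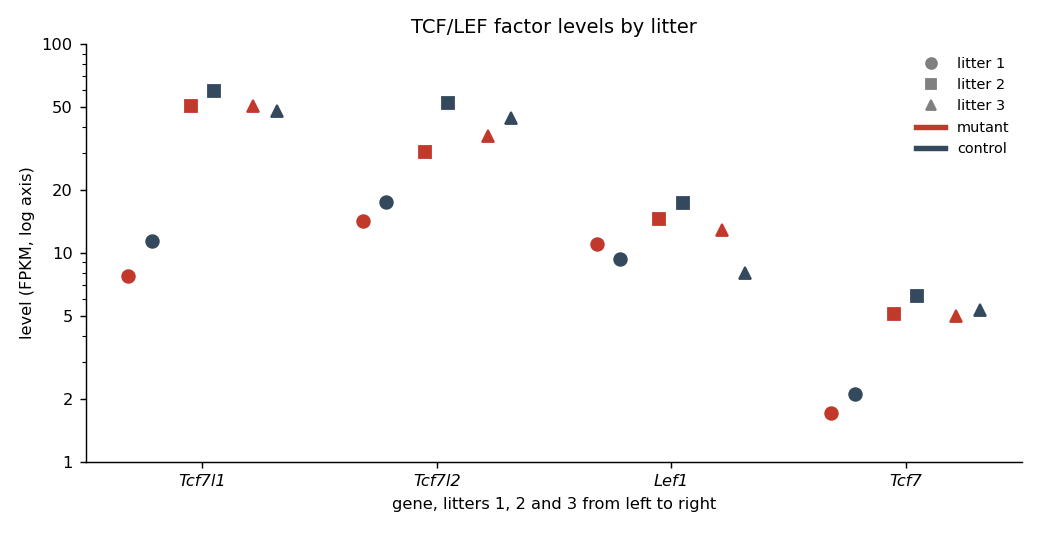
Level in FPKM (log axis) of Tcf7l1, Tcf7l2, Lef1 and Tcf7 in each mutant (red) and control (dark) column, with litters 1, 2 and 3 from left to right within each gene. Tcf7l1 lies at 7.76 and 11.4 FPKM in litter 1 and between 47.7 and 59.5 FPKM in litters 2 and 3.

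Ordered by mean level, the mutants had Tcf7l1 at 36.2, Rspo3 at 26.5, Nkd2 at 19.3, Nkd1 at 16.8, Axin2 at 16.4, Lef1 at 12.8, Rspo2 at 6.59, Znrf3 and Tcf7 both at 3.93 and Rspo1 at 1.89 FPKM. In the controls the order was Tcf7l1 at 39.5, Rspo3 at 18.6, Nkd1 at 15.3, Axin2 at 14.7, Nkd2 at 13.2, Lef1 at 11.5, Tcf7 at 4.54, Rspo1 at 4.19, Rspo2 at 4.18 and Znrf3 at 3.71 FPKM. Among control neighbours the column ranges parted only between Lef1 and Tcf7. Among mutant neighbours they parted between Rspo3 and Nkd2, between Lef1 and Rspo2, and between Rspo2 and Znrf3. Rspo3 stood at the 72.6 percentile of all tested rows by mean level in the mutants and at the 60.4 percentile in the controls.

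The deposited list of 1352 symbols, whose name calls its genes directly repressed by Shox2, holds 4 of the 10 genes: Nkd2, Rspo2, Rspo3 and Znrf3. Of all tested rows 7.71% are on it. The sources used here do not say how it was compiled, and it may rest on these samples, so membership is no independent evidence of direction. The 3 members without overlap on the higher side were all on the list, and Znrf3, the fourth, overlapped.

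Promoter sequence was at hand for 7 of the 10 genes, in 11 windows of RefSeq starts on GRCm38.p6, another build than the mm9 named in the submitters' processing notes. The 250 bases before each start were searched on both strands for the TCF/LEF core CTTTGA. The same search was made for its longer form CTTTGAT, whose matches all contain the core, and for TAATTA, a palindrome that many homeodomain proteins bind. The core was found in 1 window, an alternative downstream start of Lef1, against 13.8% of all 32851 windows. The longer form was found in 0 windows of these genes and in 3.21% of all windows, and the palindrome in 0 windows and in 4.84% of all windows. The first 2 sequences below are those of the members with the smallest p-values that have a window, 1 lower and 1 higher in the mutants, and have no match. The last is the Lef1 window, with its 2 core matches, both read from the opposite strand, in capitals, which start 180 and 120 bases before the start site. All are written 5′ to 3′ on the strand of the gene.
Rspo1, chr4:124986180-124986429, plus strand: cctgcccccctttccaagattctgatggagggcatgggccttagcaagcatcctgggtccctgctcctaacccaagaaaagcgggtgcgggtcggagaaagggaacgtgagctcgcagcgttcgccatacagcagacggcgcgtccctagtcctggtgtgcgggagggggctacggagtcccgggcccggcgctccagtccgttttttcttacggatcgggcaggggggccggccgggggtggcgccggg
Nkd2, chr13:73847632-73847881, minus strand: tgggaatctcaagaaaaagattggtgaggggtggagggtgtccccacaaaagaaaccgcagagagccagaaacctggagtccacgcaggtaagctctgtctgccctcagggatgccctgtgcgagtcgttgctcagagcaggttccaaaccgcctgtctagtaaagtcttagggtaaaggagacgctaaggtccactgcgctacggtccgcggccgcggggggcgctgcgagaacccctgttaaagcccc
Lef1, chr3:131156044-131156293, plus strand: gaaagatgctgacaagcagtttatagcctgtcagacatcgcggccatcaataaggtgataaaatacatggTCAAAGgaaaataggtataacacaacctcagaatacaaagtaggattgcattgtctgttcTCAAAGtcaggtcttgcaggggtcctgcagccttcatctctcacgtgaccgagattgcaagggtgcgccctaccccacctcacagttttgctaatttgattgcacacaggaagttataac

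Elsewhere in the pathway, limma called 0 genes in each of the 3 further lists below, with or without litter as a block. Of the receptor list, which also holds Rnf43 and Rspo4, 13 of 17 genes were tested, with a median log2 difference of 0.10, and 2 were higher and 0 lower without overlap, where 4.22% and 5.03% of all rows were. Fzd9, a Frizzled receptor, was at 6.81, 10.5 and 7.23 FPKM in the mutants, against 6.20, 5.19 and 5.20 FPKM in the controls, without overlap (log2 difference 0.47, SE 0.19, limma adjusted p = 1.00). Fzd4, another Frizzled, which also serves norrin, did not overlap either, at 13.5 ± 0.708 FPKM in the mutants and 10.4 ± 2.63 FPKM in the controls (SD, n = 3 each). Fzd6 was at 1.20 ± 0.195 FPKM in the mutants and 1.75 ± 0.563 FPKM in the controls. Lgr4, the main R-spondin receptor of these cells by level, was at 28.9 ± 3.96 FPKM in the mutants and 24.3 ± 5.67 FPKM in the controls. Of its relatives, Lgr5 was at 4.58 to 6.07 FPKM in the mutants and 4.6 to 5.17 FPKM in the controls, and Lgr6 stayed under 0.5 FPKM in all 6 columns. Rnf43, the partner ligase of Znrf3, was at 0.226 FPKM or less in each column, so Znrf3 made up nearly all of this pair by level.

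Intracellular and nuclear parts of the pathway had 22 of 22 genes tested and a median log2 difference of -0.07, with 1 gene higher and 1 lower without overlap, shares close to the 4.22% and 5.03% of all rows. Ctnnb1, which encodes beta-catenin, was at 530, 510 and 561 FPKM in the mutants, against 565, 462 and 544 FPKM in the controls. Tle3, a corepressor that binds TCF factors, was at 39.1 ± 5.92 FPKM in the mutants and 46.8 ± 4.82 FPKM in the controls (SD, n = 3 each). Apc, a core part of the destruction complex, was at 16.2 ± 2.66 FPKM in the mutants and 12.8 ± 4.19 FPKM in the controls. The kinase gene Csnk1a1, which primes beta-catenin for destruction, was at 206, 192 and 199 FPKM in the mutants, against 183, 160 and 183 FPKM in the controls, without overlap (log2 difference 0.18, SE 0.14, limma adjusted p = 1.00). Dvl1, a Dishevelled gene, was at 17.3 ± 2.50 FPKM in the mutants and 19.8 ± 0.586 FPKM in the controls.

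Other target genes had 12 of 15 genes tested and a median log2 difference of -0.11, below 0 where the 10 genes described had a median above it. Wif1, a secreted Wnt inhibitor, was at 13.9, 23.6 and 29.4 FPKM in the mutants, against 27.4, 40.5 and 39.7 FPKM in the controls. It was lower in 3 of 3 litters, though the litter 3 mutant lay above the litter 1 control (log2 difference -0.70, SE 0.30, limma adjusted p = 1.00, blocked by litter 0.116). Myc, a growth regulator, was at 15.6 ± 4.71 FPKM in the mutants and 20.3 ± 5.46 FPKM in the controls (SD, n = 3 each). Notum, a secreted enzyme that inactivates Wnt, was at 2.39 ± 0.675 FPKM in the mutants and 2.92 ± 0.0574 FPKM in the controls, and Msx1, a homeobox gene also driven by BMP, at 6.08 ± 1.09 and 4.6 ± 2.69 FPKM in that order. Of the 12 tested targets, 0 were higher and 3 lower in all 3 litters, where 15.7% and 22.3% of all rows were. Without overlap in either direction there were 0, where 9.25% of all rows were.

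**Figure D5:**
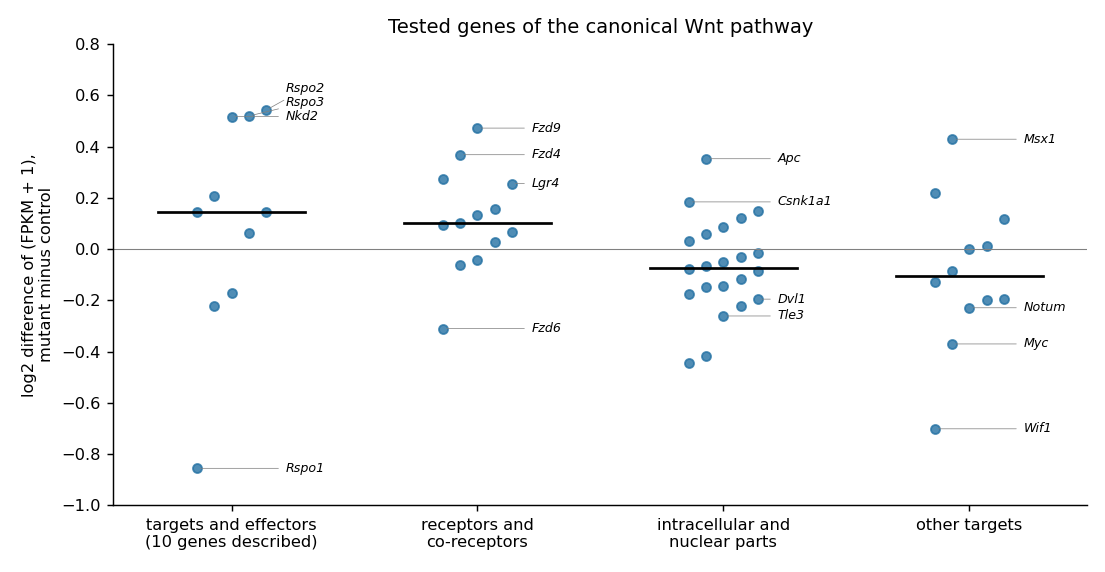
Log2 difference of (FPKM + 1), mutant minus control, for every tested gene of the 10 described and of 3 further lists of the pathway (points, spread sideways for visibility), with the median as a black line. Medians are 0.14, 0.10, -0.07 and -0.11 from left to right.

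Transcripts of cells other than mesenchyme were present in the sorted material, and several Wnt genes are also made in such cells. Among the lists of other cells, red cell markers had the highest summed level. It was 717, 384 and 230 FPKM in the mutants of litters 1, 2 and 3, against 491, 597 and 329 FPKM in the controls. Of the 9 red cell markers with a row, 9 were higher in the mutant of litter 1, 2 in litter 2 and 1 in litter 3. Of 14 surface ectoderm markers 7 were tested and 0 were listed at 0 in all columns, and their summed level was 19.8 to 27.4 FPKM in the mutants and 25.1 to 51.0 FPKM in the controls. Fgf8, a signal of the apical ridge where Rspo2 is also expressed, was at 2.52, 6.11 and 5.95 FPKM in the mutants, against 6.12, 9.92 and 10.2 FPKM in the controls. It was lower without overlap, but the highest mutant and the lowest control, of different litters, were nearly level. The part of ridge cells in the Rspo2 value was not tested. Epcam, an epithelial surface protein, was at 3.42 to 4.998 FPKM in the mutants and 4.45 to 5.41 FPKM in the controls. Over all 14 markers there was no common direction, with 10 higher in the mutant of litter 1, 0 in litter 2 and 7 in litter 3. Krt5 was at 186% of control in litter 1 and 47.6% in litter 2. Of the 7 tested, 0 were higher and 3 lower in all 3 litters, where 15.7% and 22.3% of all rows were. Without overlap 0 were higher and 2 lower, where 4.22% and 5.03% of all rows were. The 2 were Fgf8 and Krt18, the latter at 5.63 ± 0.376 FPKM in the mutants and 8.89 ± 0.792 FPKM in the controls (SD, n = 3 each). Of 10 endothelial markers 5 were tested and 0 were listed at 0 in all columns. Their summed level was 12.45 to 15.1 FPKM in the mutants and 17.0 to 23.5 FPKM in the controls, without overlap. Among them Pecam1 was at 1.06 to 1.26 FPKM in the mutants and 0.648 to 3.81 FPKM in the controls, and Cdh5 at 0.498 to 0.659 and 0.369 to 3.17 FPKM in that order. In litter 1 the mutant held 165% of its control for Pecam1 and 135% for Cdh5. Egfl7, the highest of these markers, was at 6.18, 8.02 and 9.16 FPKM in the mutants, against 10.1, 4.12 and 8.30 FPKM in the controls, with overlap. Of the 10 endothelial markers, 4 were higher in the mutant of litter 1, 1 in litter 2 and 2 in litter 3. Of the 5 tested, 2 were lower and 0 higher without overlap, where 5.03% and 4.22% of all rows were. Of these, Kdr was at 0.928 ± 0.127 FPKM in the mutants and 1.62 ± 0.613 FPKM in the controls (SD, n = 3 each). Cldn5 was at 0.678 ± 0.0904 and 2.31 ± 1.20 FPKM in that order. The summed markers of muscle were at 48.1 to 50.5 FPKM in the mutants and 28.9 to 76.0 FPKM in the controls, those of nerve and glia at 36.0 to 95.2 and 24.0 to 76.8 FPKM, and those of leukocytes at 11.9 to 23.5 and 13.3 to 16.4 FPKM, each in that order. Myod1, of myoblasts, was at 2.25 to 2.83 FPKM in the mutants and 1.37 to 4.49 FPKM in the controls, and Sox10, of glia, at 1.65 to 3.65 and 1.06 to 3.62 FPKM. Ptprc, of leukocytes, was at 0.0292 to 0.337 FPKM in the mutants and 0 to 0.0826 FPKM in the controls. In such bulk values, fewer cells of a type and less RNA per cell cannot be told apart, and the part of other cells in the Wnt gene values was not tested.

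The rows most like Axin2 over the 6 columns, by Pearson correlation of log2(FPKM + 1) among 11021 rows whose mean reached 2 FPKM, were Syde2 at 0.978, Lin52 at 0.978 and Rpl14 at 0.975. For Lef1 they were Efna1 at 0.985, Efcab2 at 0.985 and Sh3yl1 at 0.980. None of the 10 Wnt genes was among them. Columns of a litter share their source, so these values only describe the 6 columns.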

How the data were processed

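RNA sequencing values of sorted limb cells were used as deposited, and the expression columns of the study are read here as FPKM. Per the file headers, the authors normalised them with Cuffdiff by its geometric method, stated once for each litter, so a level compared across litters may mix scalings. Per the submitters' processing notes, TopHat, Cuffdiff and the mm9 build were used, and for tool versions and gene models the sources used here give nothing. The header names no unit. FPKM is taken because Cuffdiff reports it. The deposited gene list holds symbols without scores or other values. All 6 value columns were used.

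The comparison of genotypes used limma (version 3.58.1, under R 4.3.3) with a trended variance prior on log2(FPKM + 1), over rows at 1 FPKM or more in at least 3 columns, with Benjamini-Hochberg adjustment over the 12314 rows. Fold changes on this scale understate those of low genes. The fit was tested on simulated data. The descriptions say that numbers mark litters, so litter pairs the columns, and deviations from group means correlated at 0.87, 0.57 and 0.77 within litters 1, 2 and 3. The fit without litter is the main one, and litter as a block the second. P-values measure the spread between columns, and the number of embryos in each is not given.

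The members and lists were chosen with earlier results of these data known. The genes named were the 10 members, Shox2, up to 4 per pathway list by p-value, 3 rows most like Axin2 and Lef1, and defining markers of other cells. Tcf7l2, Lgr5, Lgr6, Rnf43, Ctnnb1, Krt5, Krt18, Egfl7, Kdr, Cldn5, Prrx1, Xist and Eif2s3y were named after their values were seen. The homeodomain motif was added after the data were seen.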

Additional observations from a re-analysis of the deposited data

How the results depend on the processing

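The 4 genes without overlap kept their direction under every alternative run: pseudocounts of 0.1 and 0.5, no filter, a mean of 5 FPKM or more (which leaves Rspo1, Tcf7 and Znrf3 untested), quantile normalisation, median-ratio scaling, column weights, no trend, the replicate block, and each column or litter pair left out. Log2 differences ran from 0.48 to 0.56 for Nkd2, -1.14 to -0.66 for Rspo1, 0.44 to 0.70 for Rspo2 and 0.38 to 0.76 for Rspo3.

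With the replicate block all 10 estimates are those without it, and no call changed. With the replicate block and no litter 2 pair, 299 rows were called higher and 231 lower, with 5 of the Wnt genes (Lef1 0.42, Nkd2 0.51, Rspo1 -0.86, Rspo2 0.48, Rspo3 0.67), and 5 were higher without overlap, beside 8.59% of rows. With the replicate block and no litter 3 pair, 23 rows were called higher and 5 lower, and Lef1 turned to -0.0057, as it did without the block. Column weights called 12 rows higher and 3 lower, turned Tcf7l1 to 0.061 and put 5 Wnt genes at an unadjusted p under 0.05 on the higher side, beside 5.1% of rows. Under the filter on a mean of 5 FPKM, 0 Wnt genes were lower at an unadjusted p under 0.05 and 0 lower without overlap, since Rspo1 is not tested there. Without the litter 1 pair, with or without the block, 2 were lower without overlap, beside 20.3% of rows. Without the litter 2 pair and no block, 5 were higher without overlap, beside 8.59% of rows, and without the litter 3 pair 0 were higher at an unadjusted p under 0.05, beside 0.943% of rows.

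Leaving out 1 column at a time, the log2 difference ran from -0.54 to 0.21 for Tcf7, -0.93 to 0.63 for Tcf7l1, -0.014 to 0.34 for Nkd1, 0.0019 to 0.51 for Lef1, 0.045 to 0.26 for Axin2 and 0.025 to 0.14 for Znrf3, rows called higher from 0 to 1 and lower from 0 to 1, and Wnt genes called stayed at 0. Wnt genes at an unadjusted p under 0.05 ran from 1 to 4 higher, beside 1.08% to 2.54% of rows, and those without overlap from 3 to 5 higher and 1 to 2 lower, beside 5.81% to 11.2% and 7.88% to 15.7% of rows. Leaving out 1 column unbalances the litters between genotypes, so these shifts mix litter with genotype. With a whole litter pair left out, Tcf7 ran from -0.22 to -0.14 and Tcf7l1 from -0.37 to -0.079. How much of each shift is litter was not tested. The settings without a litter pair and no block were chosen after seeing the data. Depth is unknown.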
